A study of Ovis aries with 26 samples.

Results

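The pancreas of wild-type (WT) lambs at term was compared with that of WT sheep fetuses at 120 days of gestation, to describe which genes differ within each cell lineage between late gestation and birth. Single-cell RNA-seq libraries of 3 fetuses (WT 120d) and 4 lambs (WT Term) were used, 7 of the 26 libraries of the series. Libraries were taken by these labels, and a cell was kept if its number of genes lay between 200 and 6000 and mitochondrial transcripts made up less than 25%. This left 25720 of the 79510 kept cells of the whole series, 8839 at 120 days and 16881 at term, from 35786 of 109501 deposited barcodes. The series as a whole follows the pancreas of sheep with and without a functional CFTR gene through gestation, as a model of cystic fibrosis, the inherited disease caused by loss of the CFTR chloride channel.

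All 7 animals were American Romney sheep with a functional CFTR gene from natural breeding, with no disease and no treatment. At 120 days 2 of 3 were male, and at term 3 of 4 were male. The lambs were born naturally and the fetuses were collected from the ewe, so that gestational age and birth cannot be told apart here. The time from birth to collection, and whether the lambs had fed, are not given in the sources used here. The study describes alternative digestion enzymes and kit versions and collection over several breeding cycles, without assigning these to libraries. Their part in the differences between the ages was not tested. Donor numbers name separate animals, but the study's sample list gives 120-day replicates 1 and 2 animal numbers with a shared stem, so they may come from 1 pregnancy. The study describes other animals numbered in this way as triplets. P-values therefore measure the spread between these animals, each taken as independent, and not the spread between pregnancies. Each library was 10x Genomics 3′ sequencing of dissociated tissue, in which every captured transcript carries a unique molecular identifier (UMI).

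Exocrine pancreas is made of acinar cells, which make and store digestive enzymes as inactive precursors in zymogen granules, and of duct cells, which drain them and secrete a bicarbonate-rich fluid. Before birth the fetus lives on glucose and amino acids from the placenta. After birth milk brings fat and protein, and the rise of cortisol before delivery prepares several organs for this change. Imprinted and growth factor genes such as IGF2, MDK and PTN are widely active in growing fetal tissue, and many of them decline around birth.

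Depth was 34477102 to 171256169 UMIs per library, with a median of 8784 to 24633 UMIs per kept cell. At most 12 cell barcodes were shared by any pair of the libraries. Cells were assigned to a lineage by the mean level of marker genes, and names ending in "-like" refer to this assignment. The assignment gave 14300 acinar-like, 2914 duct-like, 2111 endocrine-like, 1747 stromal-like, 1033 endothelial-like and 558 mural-like cells. Because marker scores assign the cells, leading genes that are markers do not check the names: 9 of the 10 leading genes of acinar-like cells and 4 or 5 of 10 in the 5 other lineages tested were gating markers. In duct-like cells APOA1 and AGT ranked above SLC4A4 and MMP7. INS, which encodes insulin, is not an entry of the count tables used here, so beta cells could not be followed. Cells scoring within 10% of a lineage's limit, assigned to it or not, equalled 1.28% of the number of endocrine-like and 11.1% of that of mural-like cells. The other lineages tested lay between these values. In term replicate 4 there were 91 such cells beside 254 duct-like cells and 42 beside 119 stromal-like cells. Cells scoring for a pair of lineages made up 0.924% to 7.02% of a library and were left out, as no separate step removed doublets.

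Acinar transcripts were counted in cells of other lineages, to a degree that differed between libraries. Whether they came from free RNA, from mixed droplets or from the cells themselves was not tested. The digestive enzyme list made up 0.277% to 0.418% of all UMIs of duct-like cells at 120 days. At term the values were 0.288%, 2.69%, 0.735% and 0.826% in replicates 1 to 4. Term replicate 2 therefore stood apart, and in the other lineages a gene is marked where acinar RNA, at the proportion of the digestive enzymes, would give most of its level.

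Acinar-like cells were the most frequent lineage in every animal. They made up 55.1%, 61.9% and 31.4% of the kept cells in the 3 fetuses and 61.8%, 54.7%, 78.5% and 62.3% in the 4 lambs. The mean was 49.4% ± 16.0 (SD) at 120 days and 64.3% ± 10.1 at term, and the animals of the groups overlapped. Duct-like cells took 16.0% ± 4.24 at 120 days and 12.5% ± 10.5 at term, with 1 lamb (replicate 1) at 28.3% and the others between 6.45% and 8.44%. The difference of the duct-like means was -3.50 percentage points with that lamb and -8.74 without it. The library of term replicate 1 kept 51.77% of its barcodes, against 70.75% to 80.99% in the other lambs. The mitochondrial limit removed 964 of its 2090 barcodes. With a limit of 10% mitochondrial UMIs its duct-like share was 20.1%. Endocrine-like cells took 11.1% ± 6.16 of fetal and 4.74% ± 3.84 of term cells, and term replicate 1 held a single such cell among 1082. Stromal-like cells took 6.02% ± 1.69 and 4.20% ± 4.47. No share of the 13 lineages tested passed an exact two-sided permutation test over animals, in which the smallest possible p is 0.0571. The raw p-values started at 0.171 for endocrine-like cells and the adjusted ones at 0.743. Shares in dissociated tissue also depend on how well each lineage survives the digestion, which was not tested.

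**Figure D1:**
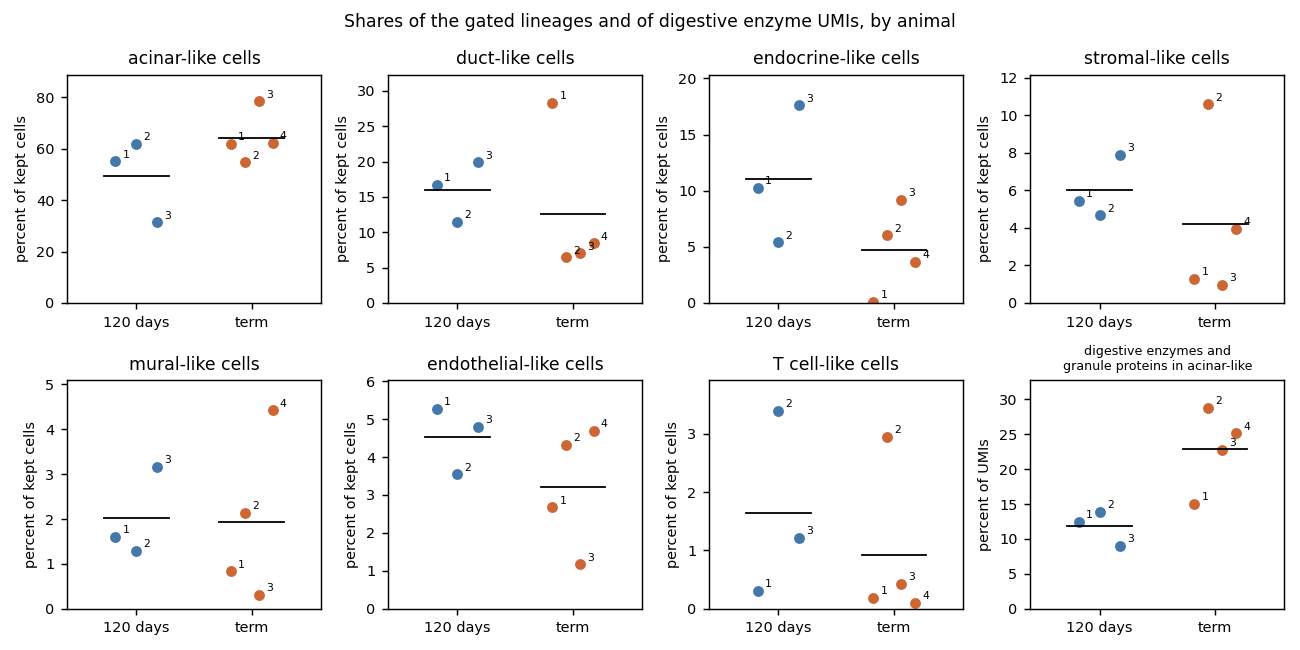
Share of 6 lineages and of T cell-like cells among the kept cells, in percent, for every animal (points, numbered by replicate) with the group mean (line). The last panel gives the percent of acinar-like UMIs, without ribosomal protein genes, from the digestive enzyme list, where every lamb is above every fetus. The groups overlap in all 6 lineages, and the duct-like share of term replicate 1, 28.3%, lies apart from the other lambs.

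Erythroid-like cells were found in each of the 3 fetuses, 7, 18 and 48 cells, and in none of the lambs. A count of 0 allows up to 3 cells in each lamb by counting error alone, which leaves out the spread between animals. The tissue was treated with a red cell lysis solution, and its part in these numbers was not tested. A group of 68 intestinal epithelium-like cells occurred in term replicate 4 alone.

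For each lineage, UMIs were then summed over the cells of each animal and compared between the ages with edgeR's quasi-likelihood test. Levels are given in CPM, the UMIs of a gene as a proportion of all UMIs of the summed cells after TMM scaling. A gene was called higher or lower at term at a Benjamini-Hochberg adjusted p of at most 0.05 over all genes tested in that lineage. In a sum over a lineage, a change of level in every cell and a change in the mix of subtypes cannot be told apart.

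In acinar-like cells the trypsinogen PRSS1, the secreted lectin REG1A, the serine synthesis enzymes PSAT1 and PSPH, the mitochondrial fatty acid importer CPT1A and the glutathione synthetase GSS rose from 120 days to term. The growth inhibitor CDKN1C and the secretagogue receptor CCKAR fell. Of 13152 genes tested, 488 were called (3.71%), 242 higher (1.84%) and 246 lower (1.87%) at term. In 487 of the 488 the fetuses and lambs did not overlap, as they did not in 24.5% of all genes tested. The number of calls rested on single animals: it was 4, 5 and 21 without 120-day replicates 1, 2 and 3, and 488, 1378, 26 and 493 without term replicates 1 to 4. GSS and CPT1A were called whichever animal was left out. Scaling to total UMIs gave 143 calls, 80 higher and 63 lower.

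The 22 measured genes of the digestive enzyme and granule protein list took a larger part of the acinar transcripts at term, but not once the most abundant entry of these cells was counted with them. Of the UMIs without ribosomal protein genes, the list held 12.5%, 13.9% and 9.03% at 120 days and 15.0%, 28.7%, 22.8% and 25.2% at term. Every lamb was above every fetus, with means of 11.8% ± 2.50 and 22.9% ± 5.81, a difference of 11.1 percentage points (p = 0.0571, two-sided, from the exact permutation test over animals, whose lowest possible value this is). The single most abundant entry, LOC101117443, which the tables name by identifier only, is not in that list. In RefSeq's annotation of another sheep assembly it lies between BCAR1 and the entry that the study's lists name CTRB1, a chymotrypsinogen, and whether it encodes a digestive enzyme was not tested. It held 49.0%, 52.0% and 47.2% of the same UMIs in the fetuses and 39.0%, 36.2%, 44.5% and 39.9% in the lambs. With it, the share was 61.4%, 65.9% and 56.2% in the fetuses and 54.0%, 65.0%, 67.2% and 65.0% in the lambs. The ages then overlapped, with means of 61.2% ± 4.82 and 62.8% ± 5.97, a difference of 1.62 percentage points (exact permutation test, p = 0.686).

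The level of these genes also helped to assign the cells: 13 of the 22 were acinar gating markers, and the acinar score limit was set for each library, with the highest, 2.77, in term replicate 2. The other 9 held 0.877%, 0.983% and 0.704% of the UMIs in the fetuses and 1.27%, 3.23%, 1.17% and 2.85% in the lambs, without overlap (exact permutation test, p = 0.0571).

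The genes of the list differed in their change. Of 21 tested, 4 were called higher, against 1.84% of all genes, and none lower, and the median log2 fold change was 1.15, against 0.01 over all genes tested. PRSS2, an anionic trypsinogen and a gating marker, was at 17237, 16043 and 11784 CPM in the fetuses and at 30176, 52552, 67083 and 63481 CPM in the lambs. The groups did not overlap, and PRSS2 was 3.55-fold higher at term (log2 fold change 1.83 ± 0.34 SE, adjusted p = 0.0311). PRSS1, a trypsinogen, rose from 461, 927 and 342 CPM to 1738, 13483, 3481 and 13662 CPM, 14.0-fold (adjusted p = 0.0410). CTRC, the chymotrypsin that regulates trypsinogen activation and also a gating marker, went from 1175 to 2226 CPM in the fetuses to 4412 to 22312 CPM in the lambs, a 7.92-fold rise (log2 2.99 ± 0.57 SE, adjusted p = 0.0323). ZG16, a zymogen granule membrane lectin, was 10.3-fold higher (adjusted p = 0.0423). Trypsinogen genes are near-identical copies, so that reads of PRSS1, PRSS2 and their unnamed relatives may be shared.

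Other enzymes of the list did not pass the test, and of these CEL, CPA1 and PNLIPRP2 were gating markers too. CEL, the bile salt-activated lipase, was at 13852, 12809 and 10374 CPM at 120 days and 9640, 17716, 10538 and 7989 CPM at term, and the groups overlapped (adjusted p = 0.859). CPA1, a carboxypeptidase, ranged from 22695 to 34532 CPM in fetuses and from 15651 to 70648 CPM in lambs (adjusted p = 0.444). PNLIPRP2, a lipase that is active before weaning, was lower in every lamb, at 3419 to 6376 CPM against 8614 to 13188 CPM, with an adjusted p of 0.0549. CTRB1, CELA1, DNASE1 and AQP8, acinar genes that the study describes, overlapped between the ages and were not called.

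REG1A, a secreted C-type lectin of the acinar cell, had the largest change among the genes named by rule. It was at 89.7, 401 and 104 CPM in the fetuses and at 2104, 28838, 20565 and 60771 CPM in the lambs. Every lamb was above every fetus, and the lowest lamb was replicate 1 (log2 fold change 7.15 ± 1.24 SE, adjusted p = 0.0284).

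Of 20 genes for serine synthesis and the response to amino acid shortage, 5 were called higher in acinar-like cells, none lower and 15 neither, with a median log2 fold change of 0.89 (1.84% of all genes tested were called higher). PSAT1, an aminotransferase of serine synthesis, was at 14.2, 13.5 and 22.0 CPM in the fetuses and 117, 60.3, 166 and 127 CPM in the lambs. That is a 7.09-fold rise without overlap (log2 2.83 ± 0.38 SE, adjusted p = 0.0225). PSPH, which completes the serine pathway, rose 5.17-fold (adjusted p = 0.0319). ASNS, asparagine synthetase, went from 3.34, 3.65 and 6.11 CPM to 44.7, 15.3, 39.3 and 12.3 CPM (log2 2.67 ± 0.52 SE, adjusted p = 0.0341). SLC7A11, the cystine transporter, rose 6.26-fold and WARS, a tRNA synthetase, 2.46-fold. GSS, glutathione synthetase, rose from 2.17, 2.10 and 2.23 CPM in the fetuses to 17.1, 23.5, 36.5 and 24.7 CPM in the lambs (log2 3.55 ± 0.30 SE, adjusted p = 0.00320).

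Of 21 fatty acid oxidation genes, 5 were called higher, none lower and 16 neither (median 0.65), beside the same 1.84% of all genes. CPT1A carries long-chain fatty acids into the mitochondrion and was at 0.505, 0.476 and 0.672 CPM in the fetuses. In the lambs it was at 5.93, 8.69, 6.97 and 10.6 CPM, a 14.6-fold rise (log2 3.87 ± 0.32 SE, adjusted p = 0.00320). PDK4, a kinase that spares glucose by blocking pyruvate entry to the citric acid cycle, rose from 4.19, 6.38 and 12.2 CPM to 51.2, 114, 33.4 and 47.3 CPM. The lists of fatty acid oxidation and of glucocorticoid response both hold PDK4. ACADVL and HADHB, enzymes of the oxidation cycle itself, rose 2.73-fold and 2.17-fold. ACSL1, which activates fatty acids and is on none of the lists described, rose 6.74-fold (adjusted p = 0.0287).

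Of 18 glucocorticoid response genes, PDK4 and TSC22D3 were called higher (median 0.45), where 1.84% of all genes tested were called higher and 1.87% lower. TSC22D3, a leucine zipper protein induced by cortisol, was at 9.30, 13.1 and 11.6 CPM in the fetuses and 22.4, 22.5, 25.4 and 20.6 CPM in the lambs, a 2.01-fold rise (adjusted p = 0.0343). FKBP5, a co-chaperone of the glucocorticoid receptor, was at 15.7, 18.87 and 10.8 CPM in the fetuses and 44.9, 35.6, 18.95 and 126 CPM in the lambs. The ages were thus barely apart, and FKBP5 was not called (adjusted p = 0.0954). Term replicate 4 was the highest lamb here and in duct-, endocrine- and endothelial-like cells, where FKBP5 was not called either. In the unfolded protein response list 2 of 25 genes rose and 1 fell (median 0.71). The pair that rose were CREB3L3, a membrane-bound transcription factor (4.15-fold), and SDF2L1, a chaperone component (3.18-fold). PPP1R15A, which restores translation after stress, fell 3.03-fold (adjusted p = 0.0318). Immediate early and heat shock genes, which tissue handling can induce, had a fitted change below 0 in 22 of 24 in these cells (median -0.77), though none was called. The list had medians of -0.70 in mural-, -0.45 in endothelial-, -0.44 in endocrine-, -0.40 in stromal- and 0.03 in duct-like cells, again with none called, and its part in other results was not tested. MPV17L2, a mitochondrial ribosome assembly factor, rose 9.73-fold (adjusted p = 0.0276), and DIO1, a deiodinase that activates thyroid hormone, went from 1 UMI in all 3 fetuses to 2179 UMIs in the lambs. DIO1 was chosen after its values were seen; the ratio of its levels was 973 with a 95% counting interval of 174 to 38455.

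Among the genes that fell, CDKN1C, an imprinted inhibitor of the cell cycle, was at 60.7, 41.5 and 83.3 CPM in the fetuses and 3.67, 9.54, 0.836 and 4.36 CPM in the lambs. Every lamb was below every fetus, a 13.3-fold fall (log2 -3.74 ± 0.65 SE, adjusted p = 0.0284). CCKAR, the receptor through which cholecystokinin triggers enzyme release, was at 36.4 to 50.8 CPM in the fetuses and fell to 6.50, 8.59, 5.32 and 1.40 CPM (log2 -3.06 ± 0.49 SE, adjusted p = 0.0276). CCKAR was the only one of 15 acinar regulators called, where 1.87% of all genes tested were called lower. CTSL, a lysosomal protease able to degrade trypsinogen, went from 114, 53.1 and 101 CPM to 16.0, 25.9, 8.38 and 7.80 CPM, 6.15-fold lower. SMARCA1, a chromatin remodeller, fell from 185, 251 and 176 CPM to 27.9, 71.7, 34.7 and 33.4 CPM (adjusted p = 0.0276). COL27A1, a fibrillar collagen, fell 8.51-fold, CRISP3, a secreted protein, 6.41-fold, and AMOTL2, a target and partner of the YAP growth regulator, 4.81-fold. CYP51A1, lanosterol demethylase of cholesterol synthesis, fell from 64.5, 79.1 and 205 CPM to 16.9, 44.0, 10.8 and 17.3 CPM (log2 -2.38 ± 0.54 SE, adjusted p = 0.0488). No gene of the cell division list was called of 31 tested (median -0.59), where 3.71% of all genes tested were called. MKI67, a marker of dividing cells, was at 7.38 to 10.7 CPM in fetuses and 2.34 to 9.24 CPM in lambs. Transcripts of ribosomal protein genes, left out of the fits, made up 16.9% to 22.1% of acinar UMIs at 120 days and 9.33% to 14.8% at term.

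**Figure D2:**
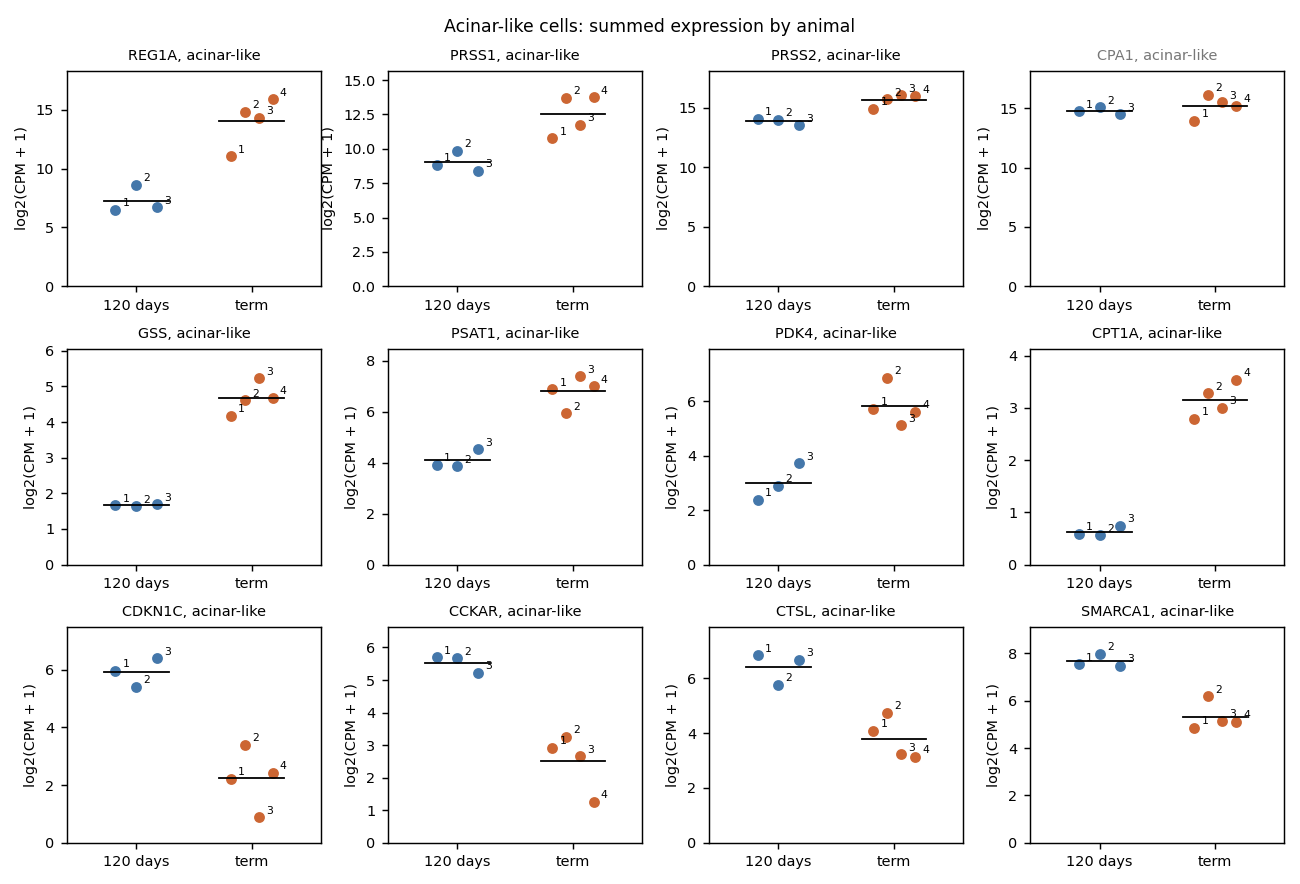
Levels of 12 genes in acinar-like cells as log2(CPM + 1) for every animal (points, numbered by replicate), with the group mean (line); a grey title marks a gene that was not called. The fetuses lie close together for GSS and CPT1A, and the fetuses and lambs overlap for CPA1 alone of the genes drawn.

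In duct-like cells the mitochondrial enzyme TST, the quinone reductase NQO1 and the vitamin B12-binding proteins GIF and TCN1 rose. COL9A3, a collagen, and PTN, a growth factor, fell. Of 10983 genes tested, 33 were called (0.3%), 14 higher (0.127%) and 19 lower (0.173%), and none of the 33 overlapped between the ages, as 12.8% of all genes tested did not. The count was 10, 7 and 16 without 120-day replicates 1, 2 and 3 and 34, 26, 10 and 22 without term replicates 1 to 4. COL9A3, NQO1, PTN and TST were among the genes called whichever animal was left out. REG1A was called as well, at 2.47 to 7.26 CPM in fetuses and 74.2 to 3486 CPM in lambs, and acinar RNA at the proportion of the digestive enzymes would give most of its term level.

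TST, a mitochondrial sulfur transferase that detoxifies cyanide, was at 120, 127 and 94.3 CPM in the fetuses and 704, 643, 652 and 580 CPM in the lambs (log2 fold change 2.51 ± 0.20 SE, adjusted p = 0.00336). NQO1, a quinone reductase, rose from 6.90, 5.70 and 8.56 CPM to 45.3, 55.9, 53.3 and 36.1 CPM, 6.58-fold (adjusted p = 0.00421). Both were tight within each age. CPT1A rose in duct-like cells too, from 9.29, 3.63 and 10.0 CPM to 93.2, 50.7, 77.3 and 39.4 CPM (log2 3.01 ± 0.40 SE, adjusted p = 0.0276). UCP2, a mitochondrial carrier, rose 3.08-fold, which made 2 of 20 fatty acid oxidation genes higher and none lower (median 0.34), against 0.127% of all genes called higher.

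A pair of vitamin B12-binding proteins rose in these cells. GIF, gastric intrinsic factor, went from 234, 131 and 238 CPM to 639, 723, 658 and 1055 CPM, 3.82-fold (adjusted p = 0.0321). TCN1, haptocorrin, went from 21.2, 28.0 and 22.5 CPM to 111, 69.6, 73.8 and 136 CPM (adjusted p = 0.0276). DAPL1, a small protein of epithelia, rose 12.7-fold (adjusted p = 0.0402). HSD11B2, which inactivates cortisol, had 5 UMIs in all at 120 days and 87 at term (adjusted p = 0.0319). HSD11B2 was the only one of 17 glucocorticoid response genes called, where 0.127% of all genes tested were called higher.

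Among the genes that fell in duct-like cells, NTRK2, the receptor of brain-derived neurotrophic factor, fell from 29.0, 14.5 and 22.5 CPM to between 0 and 2.14 CPM, 18.7-fold. Matrix genes were among the falls: COL9A3 went from 144, 149 and 318 CPM to 20.7, 25.7, 26.7 and 20.5 CPM (log2 -3.12 ± 0.31 SE, adjusted p = 0.00466). COL11A1 fell 16.1-fold and was the only one of 7 fibrillar matrix genes called, where 0.173% of all genes tested were called lower. CYR61, a matricellular YAP target, was at 1434, 1803 and 836 CPM and fell to 417, 403, 389 and 318 CPM (adjusted p = 0.0319), while the median of its list of 22 duct identity and YAP target genes was 0.00. IGFBP2, which binds insulin-like growth factors, fell 11.9-fold and IL17RB, an interleukin-17 receptor, 3.58-fold.

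The genes of duct secretion itself did not pass the test. CFTR and SLC4A4 were also duct gating markers, so their levels helped to assign these cells. CFTR was at 248, 321 and 224 CPM in the fetuses and 283, 270, 274 and 215 CPM in the lambs, a log2 fold change of -0.02 ± 0.20 SE (adjusted p = 0.984). SLC4A4, the sodium bicarbonate cotransporter, was at 783 to 1183 CPM and at 445 to 1067 CPM. CLDN6, a tight junction protein, and KRT18, a keratin, were not called either (adjusted p = 0.211 and 0.766). None of 14 ion and fluid transport genes was called, near the 0.3% of all genes tested, and no stability is read from it. Their median log2 fold change was 0.00. Of 30 cell division genes 1 was called, STMN1, a microtubule regulator that fell 2.63-fold, where 0.173% of all genes tested were called lower. The fitted log2 fold change of 29 of the 30 was below 0, with a median of -1.40.

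**Figure D3:**
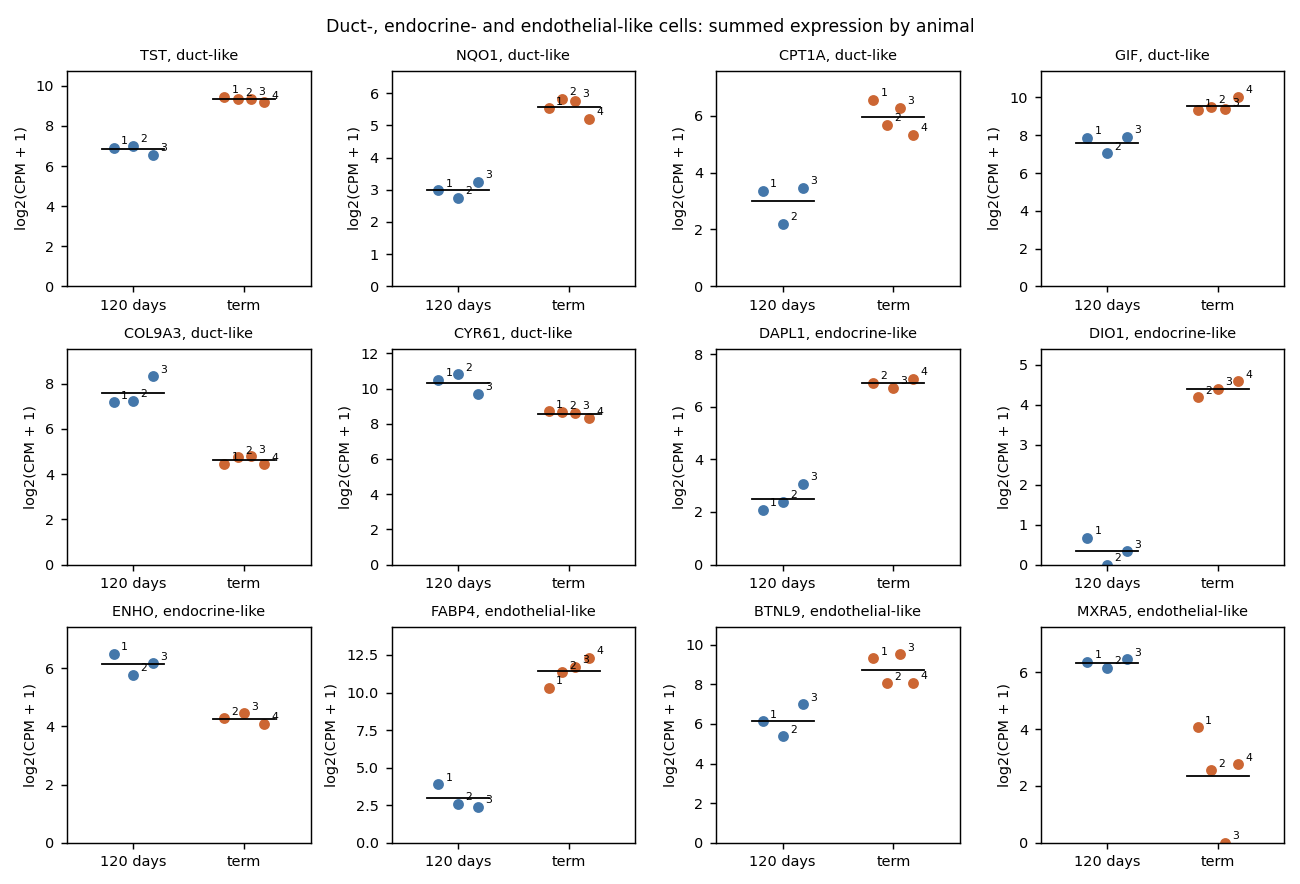
Levels of 12 genes in duct-, endocrine- and endothelial-like cells as log2(CPM + 1) for every animal (points, numbered by replicate), with the group mean (line). In each panel the fetuses and lambs do not overlap, and term replicate 1 is absent from the endocrine-like panels because it held 1 such cell.

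Endocrine-like cells were compared in 3 fetuses and 3 lambs, as term replicate 1 was below the minimum of 20 cells. Of 11020 genes tested, 21 were called (0.191%), 17 higher (0.154%) and 4 lower (0.0363%). None of the 21 overlapped, as 18.1% of all genes tested did not. The count was 5, 5 and 7 without 120-day replicates 1, 2 and 3, and 103, 95 and 4 without term replicates 2, 3 and 4. For 7 of the 17 rises, CTRC, PRSS1, PRSS2, REG1A, SYCN and 2 entries without a symbol, acinar RNA at the digestive enzyme proportion would give at least 50% of the term level. DAPL1 was at 3.23, 4.18 and 7.39 CPM in the fetuses and 119, 104 and 134 CPM in the lambs, a 21.7-fold rise (log2 4.44 ± 0.33 SE, adjusted p = 0.000451). DIO1 had 4 UMIs in all at 120 days and was at 17.2, 20.0 and 23.1 CPM at term (adjusted p = 0.00147). DAPL1, DIO1 and REG1A were called whichever animal was left out. FBP1, a gluconeogenic phosphatase, rose from 45.5, 45.0 and 46.4 CPM to 95.6, 114 and 121 CPM (adjusted p = 0.0488), and FCGRT, the receptor that transports immunoglobulin G, 2.80-fold. PRSS23, a secreted protease, rose 3.35-fold. OLA-I, a class I histocompatibility gene whose copies and alleles can share reads, rose 5.72-fold. ENHO, which encodes the secreted peptide adropin, was the only fall the naming rule took, from 89.6, 53.4 and 70.9 CPM to 18.4, 20.8 and 16.0 CPM (adjusted p = 0.0251).

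Hormone genes were not called in endocrine-like cells. GCG, glucagon, was at 105989, 120533 and 70296 CPM in the fetuses and 53768, 68042 and 9238 CPM in the lambs (adjusted p = 0.485). TTR, transthyretin, was lower in every lamb without passing (adjusted p = 0.367). PPY, pancreatic polypeptide, was at 1373, 27499 and 7195 CPM and at 42496, 16488 and 105254 CPM, and animals of the same age differed widely. CHGA, a granule protein and gating marker of endocrine-like cells, was at 1397, 1628 and 1834 CPM in fetuses and 3575, 5894 and 4721 CPM in lambs. Its adjusted p was 0.0550. None of 15 hormone and processing genes and none of 19 islet regulators passed, where 0.191% of all genes tested did, so these counts are near that share. Their medians were 0.25 and -0.49. The cell division list had a median of 0.83 with none of 30 genes called.

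Stromal-like cells, the fibroblasts and their relatives, were compared in 3 fetuses and 3 lambs, as term replicate 1 held 14 such cells. The growth factor MDK, the matrix protein POSTN and the adhesion protein NTM fell, and the glutathione peroxidase GPX3, the fatty acid transporter CD36 and the cortisol-induced KLF9 rose. Of 6120 genes tested, 299 were called (4.89%), 148 higher (2.42%) and 151 lower (2.47%). In 289 of the 299 the groups did not overlap, against 29.2% of all genes tested. Total-UMI scaling, which shifted the median gene by -0.14 on the log2 scale, gave 241 calls of which 71 were higher and 170 lower. The count was 7, 7 and 26 without 120-day replicates 1, 2 and 3, and 121, 448 and 40 without term replicates 2, 3 and 4. MDK and NTM were called whichever animal was left out. Term replicate 3 gave 31 cells and 72988 UMIs, so that a level of 0 there is weakly bounded.

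MDK, midkine, a heparin-binding growth factor, was at 398, 344 and 403 CPM in the fetuses and 5.26, 0 and 19.1 CPM in the lambs (log2 fold change -5.60 ± 0.51 SE, adjusted p = 0.00303). NTM, a neural adhesion protein, fell from 53.5, 58.6 and 73.6 CPM to 1.24, 0 and 3.18 CPM (adjusted p = 0.00303). POSTN, periostin, a matrix protein of growing connective tissue, was at 1769, 1839 and 2090 CPM and fell to 200, 14.1 and 159 CPM, 13.6-fold (log2 -3.76 ± 0.58 SE, adjusted p = 0.0205). It was the only one of 23 fibrillar matrix genes called (median -0.28), where 2.47% of all genes tested were called lower. COL1A1 and COL3A1, the main fibrillar collagens and both stromal gating markers, were lower in every lamb without passing. COL1A1 was at 5795 to 8065 CPM in lambs against 8175 to 12627 CPM in fetuses (adjusted p = 0.464). SPARC, VIM, COL6A1 and RBP4 were not called, with adjusted p-values of 0.295 to 0.844. ACTA2, smooth muscle actin, a mark of activated stellate cells and here a gating marker of mural-like cells, went from 287, 252 and 303 CPM to 69.6, 42.2 and 85.9 CPM (log2 -1.99 ± 0.28 SE, adjusted p = 0.0132). ACTA2 was the only one of 19 turnover and activation genes called, beside the same 2.47% of all genes called lower. GAP43, a growth cone protein, fell 9.07-fold, LRRC17 9.50-fold and ANGPTL6, an angiopoietin-like factor, 16.5-fold. STMN1 fell 6.26-fold and IFI6, an interferon-inducible gene, 4.70-fold. SRGAP3 and NDST3, a heparan sulfate-modifying enzyme, fell 12.1-fold and 10.1-fold with at most 28.1 CPM at term.

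Of the genes that rose, GPX3, a secreted glutathione peroxidase, was at 7.65, 0 and 3.35 CPM in the fetuses and 344, 98.4 and 964 CPM in the lambs (log2 6.96 ± 0.91 SE, adjusted p = 0.0119). CD36, a fatty acid transporter, had 5 UMIs in all at 120 days and was at 31.5, 56.2 and 92.3 CPM at term (adjusted p = 0.0199). FABP4, a fatty acid-binding protein and a gating marker of another lineage named after its values were seen, had 7 UMIs at 120 days and 87.2, 126 and 340 CPM at term (adjusted p = 0.0119). AOX1, aldehyde oxidase, rose from 45.9, 25.5 and 10.9 CPM to 288, 225 and 299 CPM, and MGST1, a microsomal glutathione transferase, from 24.9, 15.3 and 29.3 CPM to 229, 253 and 111 CPM (both adjusted p = 0.0119). RGCC rose 9.64-fold and SMIM3 9.89-fold. FABP4 and RGCC were among the leading genes of endothelial-like cells. At term CD36 was at 840 to 2111 CPM and FABP4 at 1268 to 5133 CPM in those cells, above their stromal levels. Whether endothelial RNA reached stromal- or mural-like cells was not tested, as only acinar RNA was estimated. PRSS1 and REG1A were called too, and are among 6 genes for which acinar RNA, by the same estimate, would give most of the term level.

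Of 13 glucocorticoid response genes 3 rose and none fell, with a median of 1.37 against -0.02 over all genes tested, of which 2.42% were called higher. FKBP5 was at 15.3, 25.5 and 20.9 CPM in the fetuses and 172, 0 and 490 CPM in the lambs, so the groups overlapped through term replicate 3 (log2 3.57 ± 0.79 SE, adjusted p = 0.0376). KLF9, a cortisol-induced transcription factor, went from 38.2, 53.5 and 22.6 CPM to 99.3, 84.3 and 255 CPM, 4.20-fold. SULT1A1, a sulfotransferase, rose 2.76-fold. In the unfolded protein response list 4 of 22 genes rose, SDF2L1, DNAJB11, ATF6 and DNAJB9, between 2.71-fold and 7.17-fold (median 0.67). Of 22 translocation and transport genes SEC11C and SSR3 rose, and of 10 serine and amino acid genes SHMT2 and GARS.

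In endothelial-like cells the fatty acid-binding proteins FABP4 and FABP5 rose, and the fetal growth genes IGF2, MDK and CDKN1C fell. Of 7545 genes tested, 60 were called (0.795%), 23 higher (0.305%) and 37 lower (0.49%). In 59 of the 60 the groups did not overlap, against 15.5% of all genes tested. The count was 12, 9 and 14 without 120-day replicates 1, 2 and 3, and 86, 34, 18 and 9 without term replicates 1 to 4. FABP4, a mark of capillary endothelium that was also a gating marker and was named after its values were seen, was at 13.9, 5.07 and 4.23 CPM in the fetuses and 1268, 2608, 3402 and 5133 CPM in the lambs (log2 8.64 ± 0.69 SE, adjusted p = 0.000641). FABP5, its relative, rose from 2225, 2275 and 1719 CPM to 7175, 7273, 8997 and 7096 CPM, 3.68-fold (adjusted p = 0.0209). MICA, a stress-induced histocompatibility-related gene, had 2 UMIs in the fetuses and 236 in the lambs, a ratio of levels of 107 with a 95% counting interval of 29.3 to 889 (adjusted p = 0.00200). CDKN1C, FABP4, MICA and MXRA5 were called whichever animal was left out. BTNL9, a butyrophilin-like capillary gene, went from 69.5, 40.5 and 127 CPM to 636, 266, 733 and 271 CPM, 5.80-fold (adjusted p = 0.0457). CTSS, a lysosomal protease, rose 4.51-fold, CPT1A 4.38-fold, and ZBTB16, a glucocorticoid-induced transcription factor, from 4 UMIs in all to 86.

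The falls in endothelial-like cells included PNOC, the nociceptin precursor, from 31.6, 123 and 186 CPM to 5.26, 3.02, 6.27 and 8.70 CPM (log2 -4.44 ± 0.67 SE, adjusted p = 0.0209). HPGD, which inactivates prostaglandins, went from 65.7, 81.1 and 117 CPM to 26.3, 4.84, 0 and 2.90 CPM (adjusted p = 0.0209). MXRA5, a matrix remodelling protein, was at 82.1, 70.9 and 87.1 CPM and fell 13.5-fold (adjusted p = 0.00371). ST8SIA1, a ganglioside synthase, fell 9.16-fold and ARHGEF26, a guanine nucleotide exchange factor, 8.01-fold. None of 22 sprouting and maturation genes was called (median 0.13), near the 0.795% of all genes tested. PLVAP, the fenestral diaphragm protein and a gating marker, was at 2184 to 5533 CPM in fetuses and 4862 to 7358 CPM in lambs (adjusted p = 0.665). Neither CD34 nor CD36 was called. REG1A was called, at 3.38 to 24.0 CPM against 36.8 to 1810 CPM, a level that acinar RNA would give by the same estimate.

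Mural-like cells, the smooth muscle and pericyte lineage, could be compared in 3 fetuses and 2 lambs. Of 6961 genes tested 2 were called (0.0287%), both higher at term, and 675 had an unadjusted p under 0.05. They were REG1A, again mostly at the level that acinar RNA would give, and FABP4, at 16.1, 37.3 and 10.1 CPM in the fetuses and 1230 and 497 CPM in the lambs (adjusted p = 0.0448). CALD1, MGP, COL4A1, PMP22, SPARC, VIM and LDHA were not called, with adjusted p-values of 0.570 to 0.980. No gene was called without any 1 of the 3 fetuses, and 375 and 54 were called without term replicates 2 and 4, where a lone lamb is assumed to vary like the fetuses. In simulated counts of this size, a log2 change of 2 was recovered in 46.2% of the altered genes. Macrophage-like cells numbered 46 in the fetuses and 97 in the lambs and T cell-like cells 126 and 300, but each lineage had an age with 1 animal over the minimum, so no test was run.

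The fetal growth and imprinted list held calls in 4 of the 6 lineages, each of them lower at term. It had 2 of 20 genes called lower in acinar-, 2 of 16 in duct-, 4 of 13 in stromal- and 3 of 11 in endothelial-like cells, where 1.87%, 0.173%, 2.47% and 0.49% of all genes tested were called lower. It had none of 19 in endocrine- and none of 9 in mural-like cells, where 0.0363% and 0% of all genes tested were called lower. No member was called higher in any of the 6 lineages, and the medians were -0.99, -0.86, -1.36, -1.44, -0.58 and -0.97 in that order. PTN, pleiotrophin, the relative of midkine, was at 1806, 2862 and 2362 CPM in fetal duct-like cells and 462, 318, 475 and 491 CPM at term (log2 -2.43 ± 0.24 SE, adjusted p = 0.00466). In stromal-like cells PTN went from 2014, 2741 and 2177 CPM to 569, 618 and 627 CPM, 3.82-fold. MDK fell in acinar-, stromal- and endothelial-like cells, in the last from 308, 731 and 342 CPM to 110, 48.4, 12.5 and 66.7 CPM. In duct-like cells MDK was at 413 to 449 CPM and at 12.3 to 98.5 CPM without passing (adjusted p = 0.0637).

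IGF2, the main fetal insulin-like growth factor, fell in endothelial-like cells from 2468, 2410 and 3385 CPM to 1099, 671, 414 and 310 CPM (log2 -2.15 ± 0.40 SE, adjusted p = 0.0429). In stromal-like cells IGF2 was at 7058, 5805 and 8224 CPM and at 2194, 2572 and 1006 CPM, just short of the threshold (adjusted p = 0.0504). Its clearance receptor IGF2R fell 5.82-fold in stromal-like cells and MEST, an imprinted hydrolase, 2.98-fold. CDKN1C fell in endothelial-like cells from 311, 270 and 525 CPM to 57.9, 59.9, 100 and 55.1 CPM (adjusted p = 0.00766). PEG10, a retrotransposon-derived imprinted gene, fell 7.75-fold in duct-like cells. In endocrine-like cells it was at 730, 747 and 791 CPM and at 128, 325 and 83.7 CPM, which did not pass (adjusted p = 0.100).

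**Figure D4:**
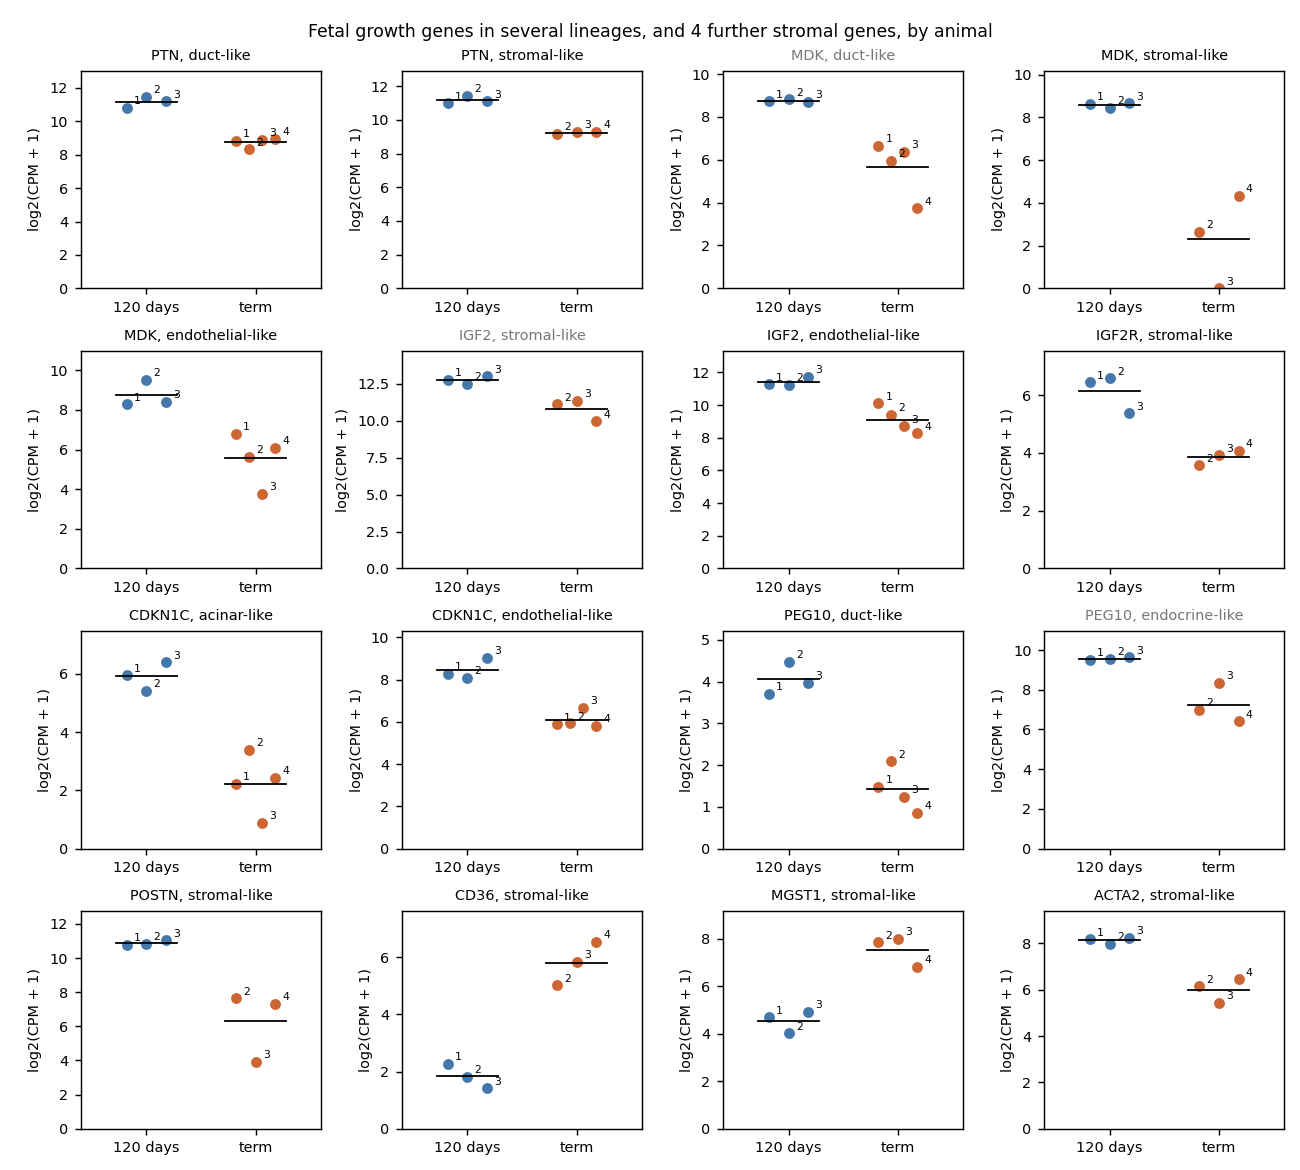
Levels of fetal growth genes in several lineages, with 4 further stromal genes, as log2(CPM + 1) for every animal (points, numbered by replicate) with the group mean (line); a grey title marks a gene that was not called. Fetuses and lambs do not overlap in any panel, including the grey ones of MDK in duct-like, IGF2 in stromal-like and PEG10 in endocrine-like cells.

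Whether acinar-like cells changed differently from a neighbouring lineage was tested directly, as an interaction with animal as a block. Against duct-like cells 61 of 14453 genes were called (0.422%), 24 with a higher and 37 with a lower change in acinar-like cells. Against stromal-like cells 54 of 13922 were called (0.388%), 25 and 29. GSS, which rose in acinar-like cells, was at 5.08 to 9.85 CPM in fetal and 6.43 to 11.4 CPM in term duct-like cells, and the difference of the log2 changes was 3.29 ± 0.37 SE (adjusted p = 0.00805). ASNS differed in the same direction by 2.69 ± 0.47 SE (adjusted p = 0.0398). SMARCA1, which fell in acinar-like cells, was at 163 to 212 CPM and 97.8 to 208 CPM in duct-like cells, a difference of -1.92 ± 0.25 SE (adjusted p = 0.0121). The first count was 6, 9 and 23 without 120-day replicates 1, 2 and 3 and 48, 444, 14 and 27 without term replicates 1 to 4. The second was 64, 74 and 63, and 411, 309 and 259 without term replicates 2, 3 and 4.

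**Figure D5:**
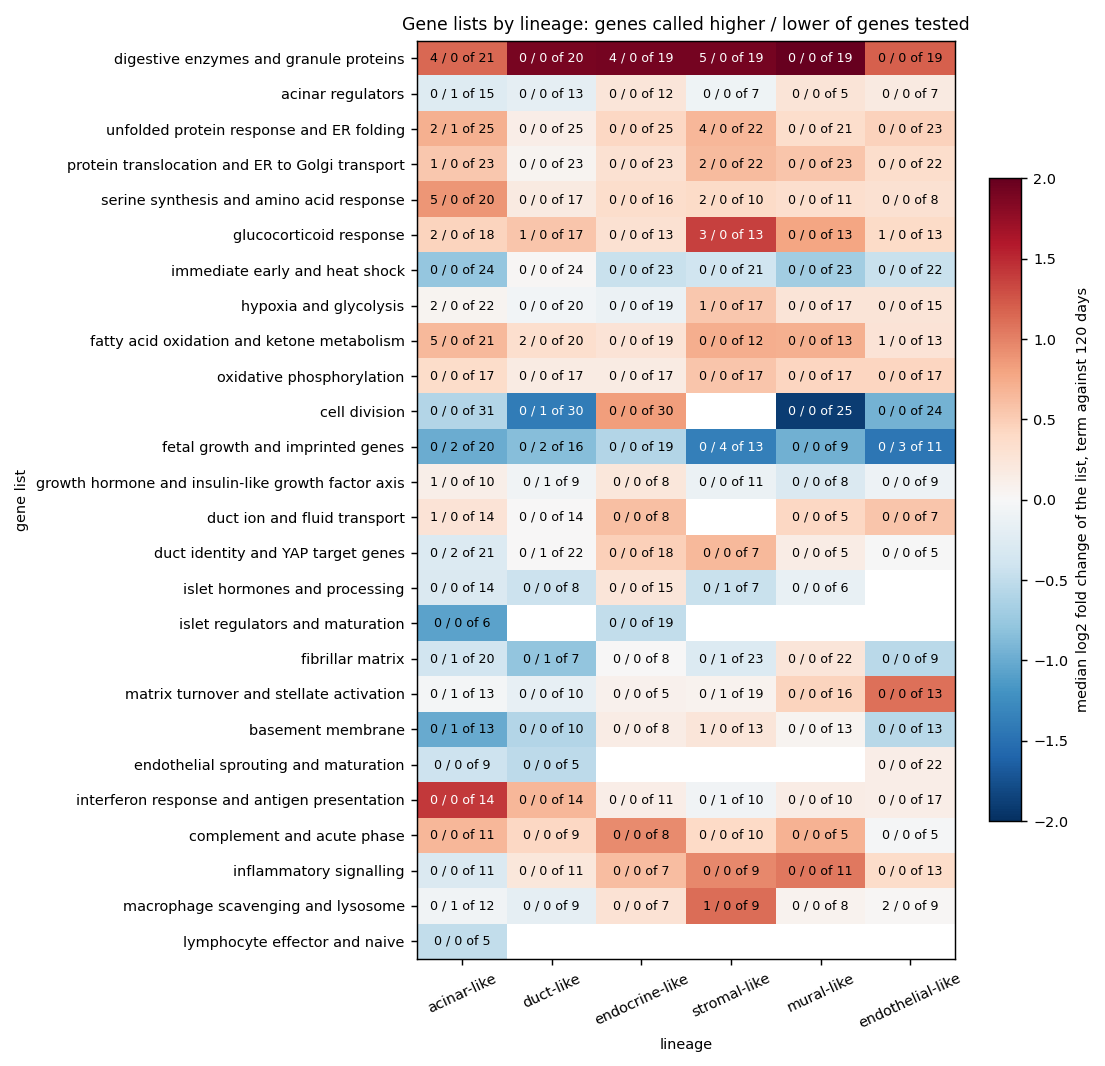
Gene lists (vertical axis) by lineage (horizontal axis), coloured by the median log2 fold change of the tested members, term against 120 days; the text in a cell gives genes called higher / lower of genes tested, and cells are blank where fewer than 5 members were tested. The fetal growth list has a median below 0 in all 6 lineages, from -1.44 to -0.58, and the digestive enzyme list is positive in all, while digestive enzymes took 0.735% to 2.69% of the UMIs of duct-like cells in term replicates 2 to 4, above the fetuses.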

How the data were processed

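Droplet single-cell RNA-seq of dissociated pancreas was analysed for 3 WT fetuses at 120 days and 4 WT lambs at term. The authors ran Cell Ranger 3.1.0 per library on the Oar_v4.0 sheep assembly. They deposited raw UMI counts of 24478 genes per called barcode, without normalization. The number of deposited barcodes equals the study's cell number for each library used here except WT Term replicate 2. Of the entries, 8432 carry only LOC identifiers; 497 were named through a RefSeq table of another sheep assembly, used for names and neighbouring genes alone, and 70 through the study's lists.

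The filter kept cells with a gene number between 200 and 6000, both excluded, whose mitochondrial share of UMIs was below 25%. Each cell was scored by the mean natural log of 1 plus UMIs per 10000 over lineage markers. It joined the lineage with the highest ratio of score to limit if that ratio was at least 1 and 1.5 times the next. Limits were set after the score distributions were seen; the acinar limit was the valley of each library. UMIs, without 87 ribosomal protein genes, were added up within each animal that had 20 or more cells of the lineage and tested with edgeR 4.0.16 in R 4.3.3 (TMM, filterByExpr, quasi-likelihood F test, Benjamini-Hochberg adjustment, 0.05). SE is the absolute log2 fold change over the square root of F. Shares were compared by exact permutation (scipy 1.17.1). Lineage differences were fitted with animal as a block. The share of a level that acinar RNA would give was scaled from the digestive enzymes.

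In simulated counts of matching depth, the share of altered genes recovered at a log2 change of 2 was 76.6% in acinar-, 90.6% in duct-, 87.4% in endocrine-, 96.8% in stromal- and 92.1% in endothelial-like cells. At a change of 1 it was 7.37%, 24.5%, 24.7%, 21.4% and 15.1% in that order. The simulation gave genes of similar level the same spread and let animals vary independently, so recovery in the real data may be lower. Named genes were, per lineage, called genes with a symbol whose ages did not overlap, with at least 20 CPM in the higher group and not used for gating: the 8 largest changes each way, or 5 in mural- and endothelial-like cells. Members of 27 gene lists and genes the study names were added. Some genes that the rule picks are not reported here. Members, lists and tests were chosen with earlier results of these data known. Alternatives were another scaling (DESeq2's median ratio, total UMIs), DESeq2 1.42.0, no count filter, a stricter threshold, 10% mitochondrial UMIs, a stricter gate, removal of the highest Scrublet scores (scanpy 1.11.5), a replicate block, males only, and omission of each animal. Intervals cover counting error only.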

Additional observations from a re-analysis of the deposited data

Results flagged for a closer look

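The duct-like share was 28.28% in term replicate 1 and 6.445% to 8.441% in the other lambs. In term replicate 2 the T cell-like share was 2.945%, against 0.0997% to 0.4312% in the others, and the dendritic-like share 0.4611%, against 0 to 0.06647%. CRISP3 in acinar-like cells was at 1.089 CPM in term replicate 3 and at 3.707 to 4.18 CPM in the other lambs. SMARCA1 was at 71.74 CPM in acinar-like cells of term replicate 2 and at 27.87 to 34.69 CPM in the others. Each of these 5 lay apart from the rest of its group of 4 by Dixon's criterion, among 55 groups examined, and chance alone gives about 1 in 20.

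Differences of several genes between lineages passed the direct test of the change from 120 days to term. Relative to duct-like cells, the log2 change in acinar-like cells was higher by 2.69 for ASNS, 3.29 for GSS and 2.30 for MPV17L2, and lower by a difference of -1.92 for SMARCA1. Relative to stromal-like cells, the change in acinar-like cells was higher by 3.50 for GAP43 and 2.64 for PCSK1N, a proprotein convertase inhibitor and gating marker of endocrine-like cells, and lower by a difference of -2.12 for AMOTL2. GAP43 and PCSK1N fell in stromal-like cells, to 6.36 to 28.1 CPM and 0 to 15.5 CPM. Neither was called in acinar-like cells, at log2 changes of 0.32 and 0.05. In acinar-like cells of the fetuses GAP43 was near the floor, so a fall could hardly have shown. GSS and CTSL came out at 3.36 and -2.61 against stromal-like cells, but had too few UMIs to be tested in those alone and entered through their acinar counts, so these values are given with no difference read from them.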

How the results depend on the processing

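Numbers of called genes moved with the processing. Of 134 called gene values followed within lineages, none changed sign under any alternative, while 765 of 2079 recomputed values missed the threshold. These values were followed because they were called, most of them without overlap of the ages. A change of sign was therefore unlikely from the start, and its absence is no separate support. Calls in acinar-, duct-, endocrine-, stromal-, mural- and endothelial-like cells numbered 488, 33, 21, 299, 2 and 60. DESeq2 gave 1824 in acinar-, 268 in duct-, 136 in endocrine-, 37 in mural- and 122 in endothelial-like cells, but fewer, 203, in stromal-like cells. Without the count filter 101, 352, 743, 278 and 254 genes were called in duct-, endocrine-, stromal-, mural- and endothelial-like cells, but fewer, 446, in acinar-like cells. The stricter threshold left 4, 5, 3, 5, 0 and 8 in the 6 lineages. Males alone gave 1, 0, 61, 23, 0 and 8, with fewer animals per age. Scaling to total UMIs, added after the data were seen, gave 143 in acinar-, 35 in endocrine- and 1 in mural-like cells. The limit of 10% mitochondrial UMIs gave 33 in endocrine-like cells, and the stricter gate 127 in endothelial- and 0 in mural-like cells. Leaving out genes whose level acinar RNA would mostly give, also added later, left 1 in mural-like cells. For the difference between acinar- and duct-like cells (61 calls), no filter gave 261 and the stricter gate 104; for acinar- and stromal-like cells (54 calls) they gave 318 and 103, and 53 of the 54 kept their sign without term replicate 2. The causes were not tested.

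Leaving out 1 animal gave 4 (120-day replicate 1) to 1378 (term replicate 2) calls in acinar-, 7 (120-day replicate 2) to 34 (term replicate 1) in duct-, 4 (term replicate 4) to 103 (term replicate 2) in endocrine- and 7 (120-day replicate 1) to 448 (term replicate 3) in stromal-like cells. In mural-like cells it gave 0 to 375 (term replicate 2) and in endothelial-like cells 9 (120-day replicate 2) to 86 (term replicate 1). The lineage differences ranged from 6 to 444 and from 63 to 411, the highest without term replicate 2. The digestive enzyme share stayed 9.17 to 13.8 percentage points higher at term, but counting LOC101117443 with it, added after the data were seen, left a difference of 1.62. Leaving out the gating markers, also added then, gave a difference of 1.27. That is on a smaller base, with means of 0.855% at 120 days and 2.13% at term.

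With donor number as a replicate block, 101 genes were called in acinar-, 11 in duct-, 107 in endocrine-, 26 in stromal- and 6 in endothelial-like cells. Same-numbered animals did not deviate together (correlations in acinar-like cells of 0.17, -0.11 and -0.14), so the numbers do not pair them. No paired analysis was possible in mural-like cells because the groups shared fewer than 2 numbers.

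Without 1 animal the acinar-like share difference ran from 5.82 (120-day replicate 3) to 21.1 (120-day replicate 2) percentage points, the duct-like from -8.74 (term replicate 1, exact permutation p = 0.1, the smallest possible) to -1.47 (term replicate 2), the endocrine-like from -9.18 (120-day replicate 2) to -3.07 (120-day replicate 3) and the stromal-like from -3.95 (term replicate 2) to -0.735 (term replicate 3). Shares near 0 difference changed sign. The mural-like difference of -0.0916 percentage points became 0.0747 with the stricter gate and 0.0818 in males, and -0.923 to 0.480 on leaving out 1 animal. The macrophage-like difference of -0.0159 became 0.00596 with the stricter gate and -0.131 to 0.164 without 1 animal. The T cell-like difference of -0.723 became 0.315 in males and -1.40 to 0.154 without 1 animal. Alternatives for macrophage- and T cell-like genes were not run, as an age had 1 animal over the minimum. In simulated counts a log2 change of 2 was recovered least often in mural-like cells (46.2%), then in acinar-like cells (76.6%).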

Other observations

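Cholesterol synthesis genes other than CYP51A1 were also among the calls in acinar-like cells. Of 22 genes, chosen after single values were seen and given without a test of the group, 6 were called lower, against 1.87% of all genes tested, none higher and 16 neither: IDI1, SQLE, LSS, CYP51A1, MSMO1 and SC5D. The median log2 fold change was -0.90. SQLE, squalene epoxidase, was at 20.0, 23.5 and 40.2 CPM in the fetuses and 11.4, 11.9, 8.98 and 7.61 CPM in the lambs, a 2.80-fold fall (edgeR, adjusted p = 0.0318). MSMO1, a sterol oxidase, fell 3.64-fold. No gene of this group was called in duct-, endocrine-, stromal-, mural- or endothelial-like cells, where medians ran from -0.32 to 0.31. Calls in acinar-like cells alone do not show a difference between lineages. The direct tests against duct- and stromal-like cells are not given for this group, and no difference is read here.

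Of 33 proteasome subunits tested in stromal-like cells, also chosen after values were seen and without a test of the group, 7 were called higher, against 2.42% of all genes tested, and none lower, with a median log2 fold change of 0.84. PSMB5, a catalytic subunit, was at 149, 127 and 107 CPM in fetal and 316, 281 and 232 CPM in term stromal-like cells (edgeR, adjusted p = 0.0405). The fitted change was above 0 for all 34 subunits in acinar-like cells (median 0.82, 1 called higher) and all 33 in stromal- and endothelial-like cells (median 0.55 in the latter, 1 called higher). It was above 0 for 33 of 34 in mural-, 30 of 34 in endocrine- and 29 of 34 in duct-like cells, with none called.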
